A study of Mus musculus with 14 samples.

Results

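Isolated regions are regions listed in a search for open chromatin that have no listed neighbour nearby. Here they were the autosomal regions of at least 200 and under 2000 bases in width whose nearest other region on the same chromosome, measured between ends on either side, lay 50000 bases or more away. The rule used positions alone, with no measured level. It found 887 isolated regions among 167876 autosomal regions of that width (0.528%), in a table of 191271 regions. The remaining 166989 autosomal regions of that width, called other regions below, served for comparison.

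Hippocampus is the brain structure needed for contextual memory. All 14 libraries came from nuclei of hippocampus sorted after staining for Arc, GFP and the neuronal marker NeuN, in mice of the ArcCreERT2 x R26R-STOP-floxed-eYFP strain with a +/+ genotype label. Every group had a foot shock on day 0, after a dose of 4-hydroxytamoxifen and housing in the dark. Basal (n = 4) and Early (n = 3) have the same treatment label, no recall and tissue collected on day 0, and are told apart by their titles alone. Late (n = 4) was collected on day 5 without recall. Reactivated (n = 3) had recall on day 5, and its replicates 1, 2 and 3 have collection labels of days 5, 6 and 7. The Arc locus drives the recombinase in this strain, so the reporter marks cells in which Arc was active around the time of the drug. The labels do not say which sorted population each library holds, so whether a difference from Basal reflects time cannot be told. Tissue of 10 to 12 mice was pooled per condition. Separate mouse pools are not recorded for each library, and p-values therefore measure the spread between these libraries, which may be technical.

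In ATAC-seq a transposase cuts and tags DNA that is not wrapped in closed chromatin, and reads pile up over promoters, enhancers and other regulatory elements. Such elements tend to lie in groups around the genes that a cell uses. An isolated region can be a lone distal element, or a weak signal with few reads. The table names no genes. An annotation and a sequence of its genome build (mm9) were not used here, so the regions are given by position and their gene context, neuronal and glial markers and sequences were not analysed here.

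Levels are given as RPKM (reads scaled by region length and by the total of the library) divided by the median RPKM of all regions in the same library, called the relative level, so that 1 is the level of a typical region of that library. Library totals ran from 46134255 to 56251679 reads, and the 4 Late libraries had the lowest totals. The share of reads inside regions was 15.7% ± 2.71 (SD, n = 4) in Basal, 19.9% ± 7.15 (n = 3) in Early, 19.2% ± 0.653 (n = 4) in Late and 23.1% ± 1.54 (n = 3) in Reactivated. The median isolated region held 14 to 34 reads in a library, against 27 to 51 for the median other region. No value in the table was below 1 read, so a region listed at 1 read may have had none.

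The isolated regions were narrow and spread unevenly over the chromosomes. Their median width was 428 bases, against 558 bases for other regions. The median gap to the nearest region was 64615 bases, and the median on the farther side was 98612 bases. Other regions had a median gap of 3415 bases. A gap of 100000 bases or more was seen at 134 isolated regions, and one of 200000 bases or more at 27. Isolation was often shared, since 434 of the 887 (48.9%) had another isolated region of any width as a direct neighbour. The longest unbroken run held 13 isolated regions of any width in chr7:20626084-23417112. Of its 6 members within the width limits, 5 were listed at 1 read in all 14 libraries.

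Chromosome 7 held 207 of the isolated regions, which is 23.3% of them, although it holds 2.10% of all autosomal regions of that width. There 5.87% of regions of the width were isolated, followed by 2.46% on chromosome 17 (89 regions) and 1.03% on chromosome 16 (51 regions). At the other end stood chromosome 18 with 7 isolated regions (0.0876%). Chromosome 7 also had the fewest regions for its length, 26.6 per Mb, with 43.5 per Mb on chromosome 17 and up to 102 per Mb elsewhere. Over the 19 autosomes the percentage of isolated regions fell with the number of regions per Mb (Spearman's rho -0.954, Pearson's r -0.837). This is a description, because sparse regions make wide gaps by definition. On chromosome 7 the region chr7:39056157-39056641 bordered the widest stretch without a region on its farther side, 7456650 bases.

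Isolated regions were of 2 kinds, a larger group with ordinary levels and a smaller one with almost no reads. A total of 656 (74.0%) stood above 1 read in every library, and these are called covered below. Another 75 (8.46%) were listed at 1 read in all 14 libraries, and 156 were at 1 read in some. Among other regions, 96.2% were covered and 0.617% were at 1 read in every library. A mean relative level under 0.1 was found in 168 isolated regions (18.9%), against 1.75% of other regions. A mean relative level between 0.5 and 2 was found in 615 (69.3%), against 90.3% of other regions. At the high end, 36 isolated regions (4.06%) reached 2 or more, against 5.86% of other regions.

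**Figure D1:**
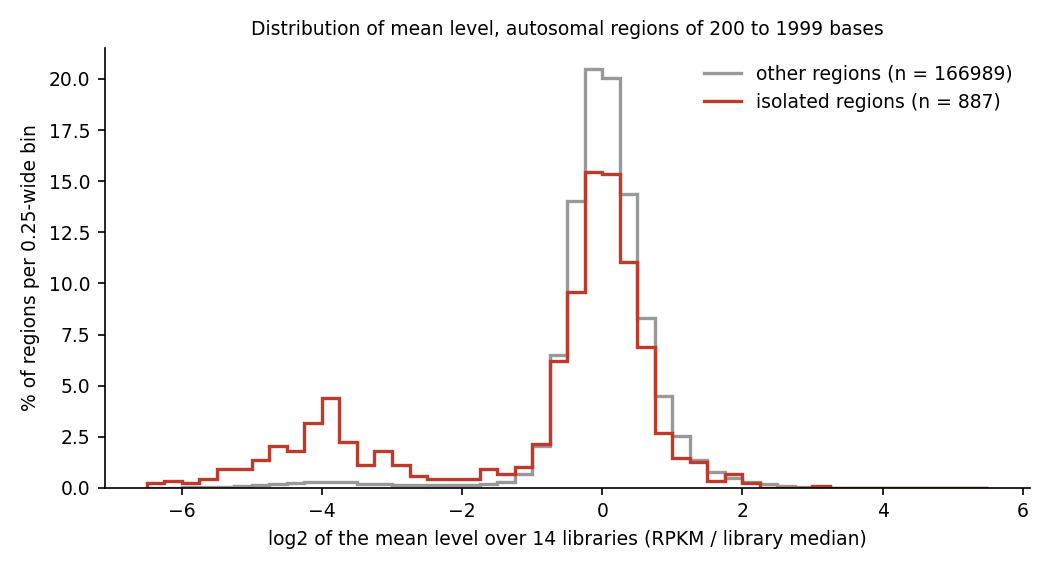
Percentage of regions (vertical axis) by log2 of the mean relative level over 14 libraries (horizontal axis, bins of 0.25) for 887 isolated and 166989 other regions. Both sets peak near 0, the level of a typical region, and the isolated set has another group far to the left, where 168 regions have a mean relative level under 0.1.

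The regions at 1 read throughout were concentrated in places. Chromosome 7 held 23 of the 75 and chromosome 2 held 13, of which 6 lay in chr2:175031647-175868800. Their median width was 344 bases and their median gap 76010 bases, while covered isolated regions had a median width of 489.5 bases and a median gap of 61755 bases. Of the 5 isolated regions with the widest gaps, chr7:8334693-8334975, chr7:10337953-10338236 and chr7:9889693-9889943 were at 1 read in every library. The widest gap of all, 643347 bases on the nearer side, belonged to chr17:38835689-38835998, which was at 1 read in 8 of 14 libraries and never above 19 reads. The relative level of this region was 0.0503, 0.0614, 0.0655 and 0.0561 in Basal, 0.0594, 0.0348 and 0.147 in Early, 0.0535, 0.104, 0.0959 and 0.0502 in Late, and 0.278, 0.843 and 0.124 in Reactivated. Reactivated replicate 2 was highest, and the remaining 13 libraries stood at 0.278 or less, the value of Reactivated replicate 1. The Reactivated libraries lay above every Basal and Late library and overlapped with Early. In the limma fit described below, the log2 change from Basal to Reactivated was 0.96 ± 0.25 (limma adjusted p 0.0192), with few reads. The region chr12:22102739-22102998, next in the width of its gap, never exceeded 2 reads.

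The level of isolated regions set against other regions of the same library differed between groups of libraries. The median RPKM of isolated regions divided by that of other regions was 0.724, 0.690, 0.679 and 0.693 in the Basal libraries and 0.619, 0.754 and 0.708 in the Early libraries. In the Late libraries it was 0.876, 0.941, 0.880 and 0.922, and in the Reactivated libraries 0.926, 0.846 and 0.842. Basal and Early overlapped, Late and Reactivated overlapped, and the highest value of the first pair (0.754) was below the lowest of the second (0.842). Group means were 0.696 ± 0.0192 (SD, n = 4) in Basal, 0.694 ± 0.0686 (n = 3) in Early, 0.905 ± 0.0322 (n = 4) in Late and 0.871 ± 0.0475 (n = 3) in Reactivated. No test was made of this summary over the set.

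Restricted to covered regions, the isolated set stood below other regions in every Basal and Early library and above them in every Late and Reactivated library. The ratio was 0.896 ± 0.0494 (n = 4) in Basal, 0.857 ± 0.101 (n = 3) in Early, 1.08 ± 0.0328 (n = 4) in Late and 1.09 ± 0.108 (n = 3) in Reactivated. The highest Basal and Early values were 0.960 and 0.947, and the lowest Late and Reactivated values 1.06 and 1.01. Outside chromosome 7 the ratio over all members was 0.679 in Basal, 0.721 in Early, 0.918 in Late and 0.887 in Reactivated. The restriction to covered regions and the one to other chromosomes were chosen after seeing the data. The share of reads inside regions moved with this ratio within some groups. In Early the ratio was 0.619, 0.708 and 0.754 in libraries with 13.8%, 18.1% and 27.8% of reads in regions, and in Basal it ran from 0.679 at the lowest share (13.2%) to 0.724 at the highest (19.3%). The Late libraries, with 18.4% or more, had 0.876 to 0.941, and the Reactivated libraries, with 21.3% to 24.0%, had 0.842 to 0.926. The part of the share of reads in the difference between groups was not tested.

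**Figure D2:**
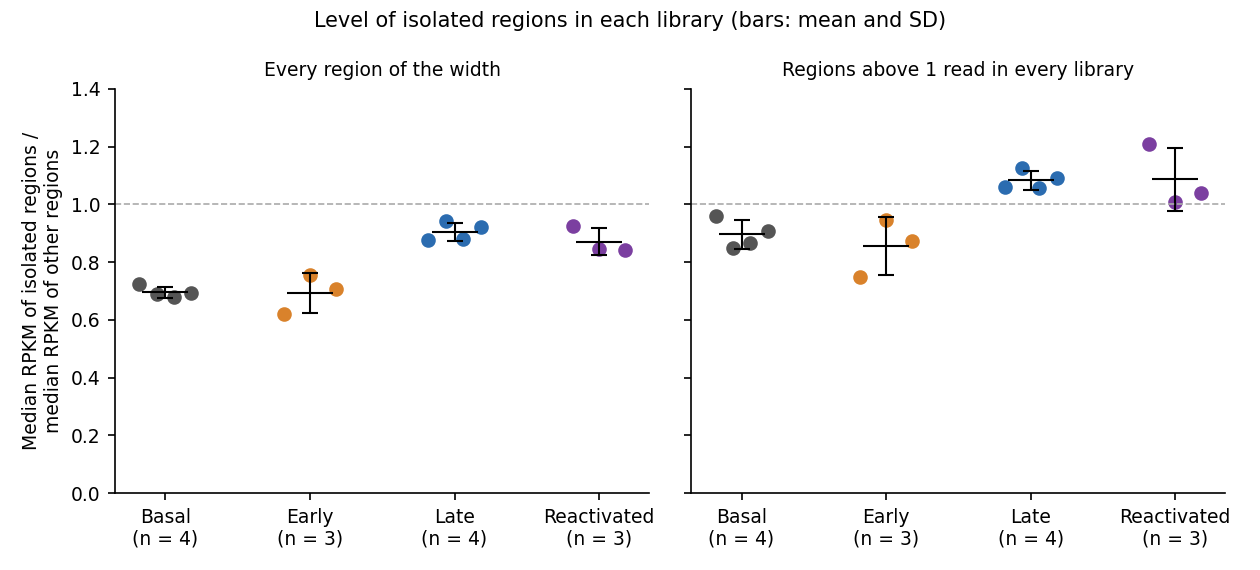
Median RPKM of isolated regions divided by the median RPKM of other regions (vertical axis, no unit) for each library, by group, for all regions of the width (left) and for covered regions (right). Points are libraries, and bars give the mean and SD of 4, 3, 4 and 3 libraries. In both panels every Late and Reactivated library lies above every Basal and Early library.

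Fewer isolated regions were at 1 read in Late. The share was 20.1% ± 1.00 (SD, n = 4) in Basal, 20.4% ± 0.579 (n = 3) in Early, 17.6% ± 0.756 (n = 4) in Late and 18.3% ± 0.767 (n = 3) in Reactivated. Every Late library (16.8% to 18.6%) was below every Basal library (18.9% to 21.0%), and Reactivated (17.7% to 19.2%) overlapped with Basal. Among other regions the shares were 2.04%, 1.86%, 1.54% and 1.83%.

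The relation of level to gap differed between groups, although their medians were close together from 1000 to under 10000 bases (1.02 to 1.03). In Basal, the median relative level of covered regions was 1.11 ± 0.00262 (SD over 4 libraries) where the nearest region was under 1000 bases away. It was 1.02 from 1000 bases, 0.912 from 10000, 0.907 from 25000, and 0.913 ± 0.0557 in the isolated regions with gaps from 50000 to under 100000 bases. In Late it ran the other way, from 1.00 at the shortest gaps through 1.02, 1.02 and 1.07 to 1.10 ± 0.0354 (n = 4) in those isolated regions. Early ran from 1.05 to 0.880 ± 0.109 (n = 3), and Reactivated from 1.01 to 1.12 ± 0.130 (n = 3). The 50 covered isolated regions with gaps from 100000 to under 200000 bases had 0.907 in Basal, 0.841 in Early, 1.13 in Late and 1.07 in Reactivated. Only 8 regions with wider gaps were covered, at 0.816 in Basal, 0.548 in Early, 0.962 in Late and 0.672 in Reactivated. On chromosome 7 alone, Early rose from 0.690 at the shortest gaps to 0.775 from 50000 to under 100000 bases. Basal there fell from 1.32 to 1.04, Late rose from 0.903 to 1.08 and Reactivated from 1.05 to 1.10.

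**Figure D3:**
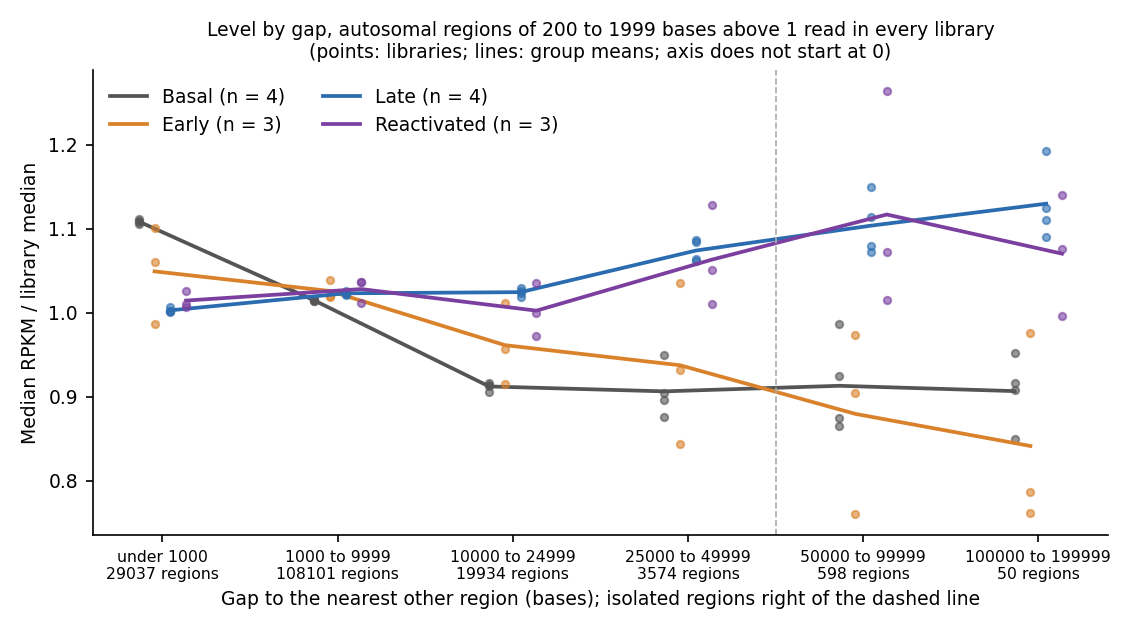
Median relative level (vertical axis, RPKM divided by the library median, axis not starting at 0) of covered autosomal regions by the gap to the nearest other region in bases (horizontal axis), with the number of regions in each class. Points are libraries and lines join group means. The 8 covered regions with gaps of 200000 bases or more are not drawn. Basal falls from 1.11 at the shortest gaps to 0.913 from 50000 to under 100000 bases, while Late rises from 1.00 to 1.10.

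Over all members, near-empty regions included, the widest gaps went with low levels in every group. The median relative level of the 107 isolated regions with gaps from 100000 to under 200000 bases was 0.233 in Basal, 0.279 in Early, 0.422 in Late and 0.398 in Reactivated. For the 27 with gaps of 200000 bases or more it was 0.0721, 0.0582, 0.0781 and 0.0671. Of these 27 regions, 6 were at 1 read in all libraries.

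Differences between groups were tested region by region on log2(relative level + 0.25) with limma, in 1 fit over all 191271 regions and 14 libraries, with Benjamini-Hochberg adjustment over all regions and a threshold of 0.05. Called means adjusted p below that threshold, and log2 changes are given with limma's standard error. In at least 1 of the 6 comparisons 328 isolated regions (37.0%) were called, against 37.2% of other regions. The share in the set as a whole was thus near that of other regions. Among covered isolated regions it was 307 of 656 (46.8%), and the share among other covered regions was not computed. None of the 75 at 1 read in all libraries was called, and their values differ between libraries only through the scaling.

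Early against Basal asks how the libraries titled Early differ from those titled Basal, both collected on the day of the shock. Of the 887 isolated regions 56 were called higher and 91 lower in Early. The percentages were 6.31% and 10.3%, and over all regions tested they were 7.00% and 5.70%. Chromosome 7 held 40 of the 91 lower ones, or 19.3% of its 207 isolated regions, and there 33.0% of the 3320 other regions were lower as well. On the other chromosomes 50 of 680 isolated regions were higher (7.35%), a share near the 7.47% of other regions there, and 51 were lower, beside 5.11% of other regions. The split between higher and lower depended on the scale. On the deposited RPKM scale, where the median change over all regions was 0.21, 66 were higher and 22 lower. That is 9.92% of isolated regions, beside 10.1% of all regions. Without Early replicate 2, 7.67% of isolated regions were called (13 higher and 55 lower), beside 3.66% of all regions.

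The largest rise in Early among regions named by rule was at chr9:5123609-5124040, 145718 bases from its neighbour on one side and 70649 on the other. Its relative level was 0.505, 0.528, 0.282 and 0.242 in Basal, 1.36, 3.30 and 1.54 in Early, 2.34, 2.36, 2.48 and 1.73 in Late, and 0.798, 2.26 and 1.80 in Reactivated. Basal lay below every other library. The log2 change in Early was 1.79 ± 0.31 (limma adjusted p 0.00448). Another region of chromosome 9, chr9:11729843-11730251, had 1.03, 0.930, 0.844 and 1.28 in Basal and 2.61, 5.83 and 4.18 in Early, a log2 change of 1.76 ± 0.21 (limma adjusted p 0.00137). It stayed between 2.63 and 3.00 in all 7 Late and Reactivated libraries. At chr17:58811587-58812333 the Basal mean was 0.844 ± 0.0994 and the Early mean 2.81 ± 1.05, with a log2 change of 1.43 ± 0.22. At chr8:111152598-111153141 Early replicate 2 stood at 3.96 beside 1.28 and 1.25 in the other Early libraries, all above the highest Basal value of 0.699. Its log2 change was 1.42 ± 0.31 (limma adjusted p 0.0101, and 0.0547 in a fit of the Basal and Early libraries alone).

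Of the 5 regions named for a fall in Early, 4 were on chromosome 7. The largest was at chr7:11080259-11080888, with gaps of 742023 and 177319 bases. It had relative levels of 2.99, 1.66, 2.29 and 1.71 in Basal, 0.554, 0.599 and 0.480 in Early, 2.58, 2.08, 2.14 and 2.10 in Late, and 1.48, 1.70 and 1.34 in Reactivated. Early was lower than every other library, and Late and Basal overlapped. The log2 change was -1.57 ± 0.19 (limma adjusted p 0.00141). At chr7:39056157-39056641 the Basal libraries had 1.99, 1.37, 2.38 and 1.61 and the Early libraries 0.758, 0.289 and 0.593, a change of -1.42 ± 0.23. Also on chromosome 7, chr7:35098367-35098850 changed by -1.33 ± 0.20 and chr7:53894556-53895694 by -1.27 ± 0.22. The exception was chr17:45388336-45388738, where Basal stood at 1.79 ± 0.170 (n = 4) and Early at 0.610 ± 0.254 (n = 3).

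Late against Basal asks how libraries collected 5 days after the shock differ from those titled Basal. Here the isolated regions were called higher more often than lower, 163 against 70. That is 18.4% higher and 7.89% lower, while over all regions tested 13.7% were higher and 14.5% lower. Covered isolated regions had a median log2 change of 0.24, other covered regions one of 0.02. Outside chromosome 7, 135 isolated regions were higher and 46 lower, which is 19.9% and 6.76%, beside 14.3% and 13.6% of other regions there. On the deposited RPKM scale, where the median change over all regions was 0.27, 260 were higher and 17 lower. That is 31.2% of isolated regions, beside 28.4% of all regions. With the 4 Late libraries averaged to 1 sample, limma called 0 isolated regions in this comparison, with 136 at an unadjusted p under 0.05 (15.5% of all regions were), while limma's voom on recovered reads with all libraries called 149 higher and 79 lower, beside 27.9% of all regions.

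The largest rise in Late was at chr13:87575525-87575785, a region 260 bases wide. Its relative level was 0.239, 0.146, 0.156 and 0.133 in Basal, 1.13, 1.37 and 0.581 in Early, 2.42, 1.67, 2.74 and 2.03 in Late, and 0.709, 1.53 and 1.62 in Reactivated. All Basal libraries were near empty and all Late libraries were above the highest value elsewhere. The log2 change was 2.54 ± 0.25 (limma adjusted p 7.72e-05), from 2 to 48 reads per library. The region chr9:5123609-5124040 described above changed by 1.97 ± 0.29 in Late. At chr9:111485768-111485970 the Basal mean was 0.291 ± 0.0985 (n = 4) and the Late mean 1.81 ± 0.533 (n = 4), a change of 1.90 ± 0.28. At chr17:77416198-77416771 the Basal libraries had 0.271, 0.199, 0.353 and 0.484 and the Late libraries 2.28, 1.52, 1.58 and 1.63, a change of 1.80 ± 0.29. The region chr4:16683171-16683527 rose from 0.432 ± 0.182 to 2.02 ± 0.317.

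Falls in Late were led by chr11:89253288-89253500, a region 212 bases wide. It had 2.20, 1.88, 2.01 and 1.80 in Basal, 2.16, 1.17 and 1.14 in Early, 0.468, 0.380, 0.350 and 0.586 in Late, and 0.695, 0.452 and 0.722 in Reactivated. Late and Reactivated overlapped, and both lay below every Basal and Early library. The log2 change in Late was -1.68 ± 0.20 (limma adjusted p 0.000367). At chr6:68051746-68052018 the mean fell from 1.78 ± 0.478 (n = 4) to 0.448 ± 0.296 (n = 4), and at chr16:7353034-7353282 from 1.69 ± 0.396 to 0.687 ± 0.307. The region chr12:20239132-20240187, which has gaps of 552372 and 380244 bases, changed by -1.17 ± 0.35 (limma adjusted p 0.0224). Its adjusted p was 0.0694 without Basal replicate 3 and 0.0762 without Late replicate 3, and 0.0770 after adjusting for the percentage of reads inside regions.

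The isolated region with the highest mean level, chr15:74915953-74917477, was among those lower in Late. Its relative level was 8.81, 12.5, 17.2 and 10.0 in Basal, 7.73, 4.00 and 6.67 in Early, 4.57, 4.41, 3.14 and 3.66 in Late, and 12.6, 10.7 and 7.31 in Reactivated. Late was below Basal and Reactivated in every library and overlapped with Early. The change from Basal was -0.96 ± 0.26 in Early (limma adjusted p 0.0273) and -1.53 ± 0.24 in Late (limma adjusted p 0.00109). With 323 to 1559 reads per library, counting error is small here. Under quantile normalization the change in Late was -0.52 and was not called (limma adjusted p 0.153).

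Reactivated against Late asks what differs with recall on day 5. Of the isolated regions 3 were called higher and 14 lower in Reactivated. That is 0.338% and 1.58%, against 0.653% and 0.448% of all regions tested. Voom on recovered reads called 20 higher and 20 lower, beside 3.38% of all regions. Leaving out any 1 of Late replicates 1, 2 and 4 or of the 3 Reactivated libraries left 0.902% to 1.24% called, with no region higher by limma, beside 0.127% to 0.244% of all regions. With the Late libraries averaged to 1 sample limma called 0, with 38 at an unadjusted p under 0.05 (2.95% of all regions were). The smaller number of calls than in the comparisons with Basal was not tested as a difference.

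The largest fall was at chr17:52950181-52950455. Relative levels there were 0.568, 0.623, 0.961 and 0.633 in Basal, 1.41, 0.785 and 0.276 in Early, 2.17, 2.35, 1.57 and 2.83 in Late, and 0.404, 0.400 and 0.419 in Reactivated. Late was above every other library and Reactivated below every Basal and Late library, a log2 change of -1.89 ± 0.30 (limma adjusted p 0.0102). Its adjusted p was 0.0508 without Reactivated replicate 1 and 0.0555 without Reactivated replicate 3. At chr2:40187835-40188459 the values were 0.997, 0.973, 0.714 and 1.17 in Basal, 0.852, 0.483 and 0.629 in Early, 1.64, 2.53, 2.47 and 2.31 in Late, and 0.492, 0.878 and 0.674 in Reactivated. Again Late stood above all other libraries, while Reactivated overlapped with Basal and Early. The log2 change from Late to Reactivated was -1.42 ± 0.22 (limma adjusted p 0.00751). At chr7:73392272-73392929 Late had 1.74, 1.57, 1.44 and 1.44 and no other library exceeded 0.986, with a change of -1.14 ± 0.17 in Reactivated.

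The 3 regions higher in Reactivated were no longer called when any library of the comparison was left out. At chr15:74915953-74917477 the change from Late was 1.30 ± 0.26 (limma adjusted p 0.0303), and adjusted p was 0.0576 to 0.124 when any of the 7 libraries compared was left out. At chr7:130112895-130114225 Basal had 2.74, 2.65, 3.01 and 3.26, Early 1.39, 1.97 and 1.79, Late 1.65, 1.71, 1.66 and 1.75, and Reactivated 2.91, 2.64 and 3.11. Basal and Reactivated overlapped above, and Early and Late overlapped below. The change from Late was 0.69 ± 0.15 (limma adjusted p 0.0362), with adjusted p of 0.0867 to 0.141 when any of the 7 libraries compared was left out. At chr7:152216698-152217163 it was 0.90 ± 0.20 (limma adjusted p 0.0425), with 0.0631 to 0.145. These last 2 regions were also not called on the deposited RPKM scale (limma adjusted p 0.292 and 0.156), and the chromosome 15 region was not called under quantile normalization (0.535). The named fall at chr4:16683171-16683527, -1.11 ± 0.25 (limma adjusted p 0.0438), was not called without any of the 7 either, at 0.0769 to 0.155.

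Late against Early compares nuclei collected 5 days after the shock with those titled Early. Of the isolated regions 34 were called higher in Late and 1 lower, which is 3.83% and 0.113%. Over all regions tested 0.535% were higher and 0.233% lower. Covered isolated regions had a median log2 change of 0.25, other covered regions one of -0.02. Chromosome 7 held 17 of the 34, or 8.21% of its isolated regions, beside 6.54% of its other regions. On the other chromosomes 17 of 680 isolated regions were higher (2.50%), beside 0.380% of other regions. Leaving out Early replicate 2 gave 6.76% of isolated regions called (57 higher and 3 lower), and leaving out Early replicate 3 gave 11 higher and 1 lower, and leaving out any 1 Late library gave 1.58% to 2.25%. Of all regions 3.54%, 0.166% and 0.183% to 0.327% were called in these fits, and 1.62% in the voom fit given next. Averaging the Late libraries to 1 sample gave 0 calls by limma, with 74 at an unadjusted p under 0.05 (3.17% of all regions were), and voom with all libraries called 46 higher.

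The region chr7:11080259-11080888, described above for its low level in Early, was higher in Late by 1.64 ± 0.19 (limma adjusted p 0.000709). At chr7:69354206-69354495 Basal had 1.08, 1.25, 0.280 and 0.600, Early 0.508, 0.223 and 0.627, Late 2.46, 1.62, 1.64 and 1.93, and Reactivated 1.62, 0.759 and 0.971. Late reached 1.62 or more and Early stayed at 0.627 or less, a change of 1.65 ± 0.33 (limma adjusted p 0.0346). That call was lost, at adjusted p 0.0572 to 0.0885, without any of Early replicates 1 and 3 and the 4 Late libraries. The 1 region lower in Late was chr11:89253288-89253500, which changed by -1.28 ± 0.22 (limma adjusted p 0.0154, and 0.0557 without Late replicate 2).

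Reactivated against Basal had 98 isolated regions higher and 15 lower. The percentages, 11.0% and 1.69%, stand beside 8.96% and 8.61% of all regions tested. Outside chromosome 7, 83 were higher and 10 lower, which is 12.2% and 1.47%, beside 9.44% and 8.22% of other regions there. On the deposited RPKM scale, where the median change over all regions was 0.37, 210 were higher and 1 lower. That is 23.8% of isolated regions, beside 26.0% of all regions. After adjusting for the percentage of reads inside regions, limma called 0, with 103 at an unadjusted p under 0.05 (13.6% of all regions were), and this fit called 0 of all regions too. Voom without this adjustment called 110 higher and 26 lower (15.3%), beside 20.3% of all regions. Leaving out Reactivated replicate 3 left 4.96% called (42 higher and 2 lower), Reactivated replicate 2 left 8.46%, and Basal replicate 2 left 8.34%. In these 3 fits 6.43%, 10.1% and 11.6% of all regions were called. The largest named rises were at chr13:87575525-87575785, 1.82 ± 0.27, and chr17:77416198-77416771, 1.67 ± 0.31. The largest fall was at chr11:89253288-89253500, -1.36 ± 0.22 (limma adjusted p 0.00364). At chr16:53788650-53789066 Basal had 3.70, 2.69, 1.75 and 2.67 and Reactivated 1.12, 1.12 and 1.07, with no overlap. The change there, -1.08 ± 0.35 (limma adjusted p 0.0431), was not called in 10 of the 14 fits that left out a library, at adjusted p 0.0526 to 0.116.

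Reactivated against Early had 47 isolated regions higher and 2 lower. The percentages were 5.30% and 0.225%, beside 1.98% and 0.727% of all regions tested. Chromosome 7 held 20 of the 47, or 9.66% of its isolated regions, beside 12.9% of its other regions. Outside it 27 of 680 were higher (3.97%), beside 1.85% of other regions. On the deposited RPKM scale 15 were higher and 1 lower (1.80%), beside 0.905% of all regions. Limma called 0 without Early replicate 1, with 164 at an unadjusted p under 0.05, beside 15.2% of all regions, and it called 0.338% without Reactivated replicate 1, beside 0.149% of all regions. Without Early replicate 2 it called 9.47% (78 higher and 6 lower), near the 8.07% of all regions called in that fit. Without Early replicate 3 or Reactivated replicates 2 or 3 it called between 2.14% and 3.16%, beside 0.728% to 1.33% of all regions. Voom with all libraries called 82 higher and 1 lower (9.36%), beside 5.47% of all regions.

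The leading region higher than in Early was chr12:3109878-3110113, with 1.32, 0.807, 1.98 and 0.738 in Basal, 0.781, 0.641 and 0.964 in Early, 1.62, 0.892, 0.757 and 0.925 in Late, and 3.14, 5.13 and 1.68 in Reactivated. Reactivated was above Early and Late throughout and overlapped with Basal. The log2 change from Early was 1.66 ± 0.36 (limma adjusted p 0.0298). Next came chr7:65716350-65716556, where Early had 0.534, 0.888 and 0.293 and Reactivated 2.45, 1.53 and 2.04, a change of 1.50 ± 0.30 (limma adjusted p 0.0223). Both calls were lost without Early replicate 1 (adjusted p 0.0971 and 0.0789), and both without Early replicate 3 (0.0580 and 0.0671) and Reactivated replicate 1 (0.0909 and 0.0833). The first was also lost without Reactivated replicate 2 (0.0805) and the second without Reactivated replicate 3 (0.0565). The region chr11:89253288-89253500 was lower, by -0.96 ± 0.23 (limma adjusted p 0.0423). It kept its call in 9 of 28 alternative fits and was not called without Early replicate 1 (0.168), Early replicate 3 (0.0594) or any Reactivated library (0.0713 to 0.110). The other region lower than in Early, chr4:37650722-37651023, falls outside the naming rule and was looked up after the calls were made. Its relative levels were low everywhere, from 0.201 to 0.305 in Early and from 0.0408 to 0.0910 in Reactivated, and it was at 1 read in 6 libraries.

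**Figure D4:**
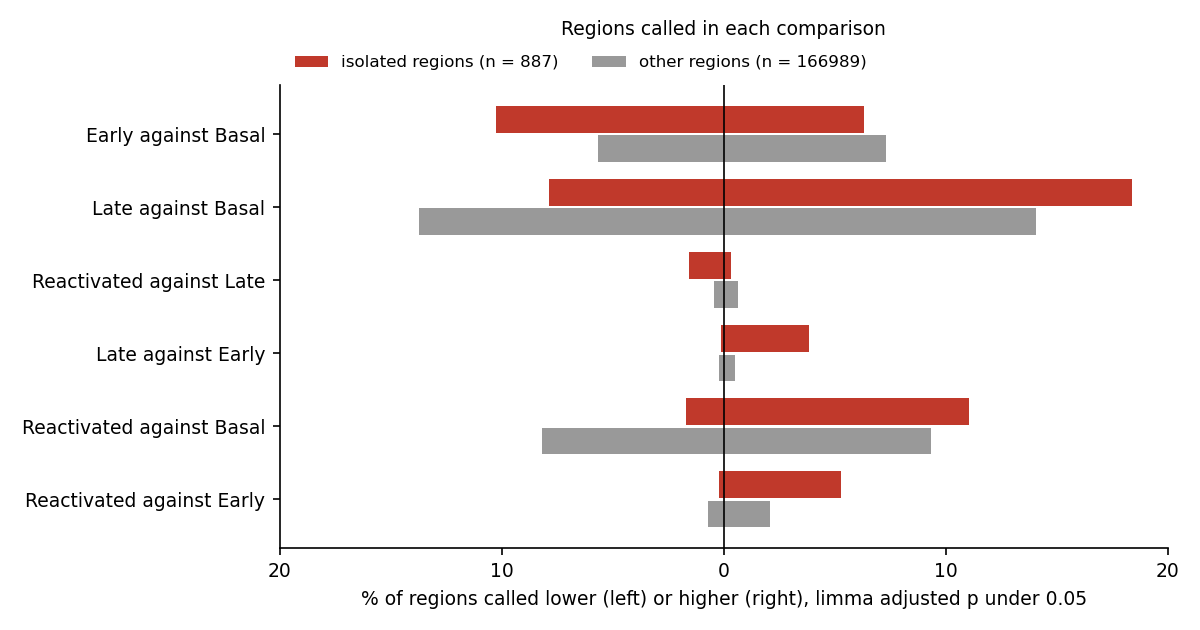
Percentage of 887 isolated and 166989 other regions called lower (left) or higher (right) in each comparison (limma adjusted p under 0.05). Isolated regions were called lower less often than other regions in Late against Basal (7.89% and 13.7%) and Reactivated against Basal (1.69% and 8.17%), and lower more often in Early against Basal (10.3% and 5.67%) and Reactivated against Late (1.58% and 0.417%). No test of these differences was made.

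**Figure D5:**
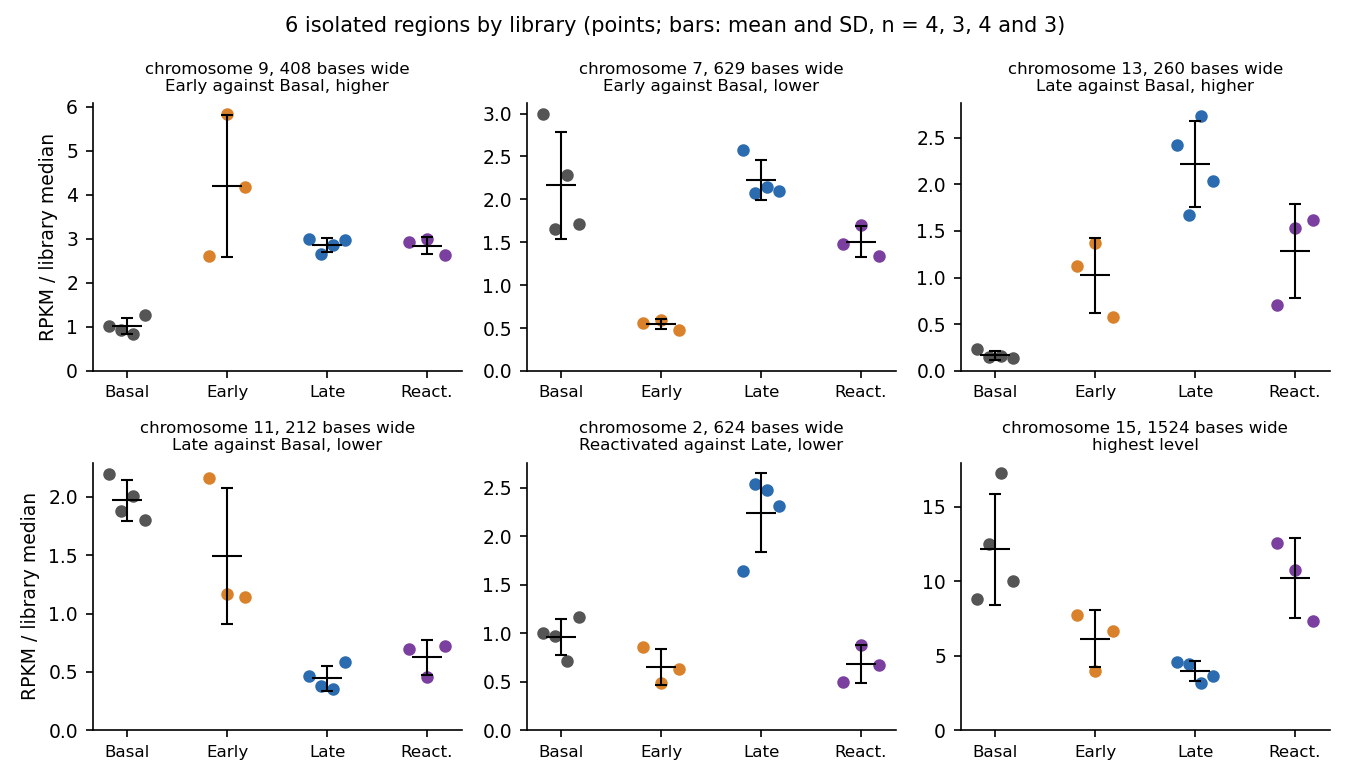
Relative level (vertical axis, RPKM divided by the library median) of 6 isolated regions named by rule, in each library by group (React. stands for Reactivated). Points are libraries, and bars give the mean and SD of 4, 3, 4 and 3 libraries. In the chromosome 13 region all Basal libraries are at 0.239 or less and all Late libraries at 1.67 or more, and in the chromosome 7 region Early is at 0.599 or less.

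The comparisons share libraries, so their calls are not independent of each other. The 3 comparisons with Basal use the same Basal libraries, and those with Early the same Early libraries. The values of each are therefore given side by side.

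Isolated regions have more low members than other regions. They were therefore also compared with other regions within 5 equal classes of mean level, made over all autosomal regions of the width. From the lowest class to the highest, 13.6%, 26.8%, 23.5%, 19.1% and 17.1% of isolated regions were higher in Late than in Basal. The shares of other regions lay between 13.6% and 15.4% in all 5 classes. The lowest class, which holds 359 of the 887 isolated regions, was thus slightly below other regions, and the highest was close to them. Levels are not matched within the lowest class, which runs from 0.00794 to 0.785. There 168 isolated regions, and 2918 of 33217 other regions, had a mean relative level under 0.1. In Late against Early 2.36% to 5.43% of isolated regions in the upper 4 classes were higher, beside 0.395% to 0.583% of other regions. On chromosome 7 these shares were 8.57% to 16.7%, beside 3.11% to 11.9% of other regions. Outside it the class above the lowest had 0 of 96 higher. The classes above that had 3 each (2.86% to 2.97%), and other regions had 0.339% to 0.366% in the upper 4 classes. Of the 129 isolated regions in the highest class (1.38 and above) 27.1% were lower in Early than in Basal, beside 8.23% of other regions, and 22.5% were higher in Reactivated than in Early, beside 5.48%. Chromosome 7 held 24 of these 129, and 14 of the 24 were lower in Early (58.3%), beside 49.6% of other regions of the class on chromosome 7. Outside it, 21 of 105 isolated regions were lower in Early, beside 7.41% of other regions, and 18 were higher in Reactivated than in Early (17.1%), beside 4.95%. Among covered regions of this class the ratio of isolated to other regions was 1.05 ± 0.0208 (n = 4) in Basal, 0.807 ± 0.0389 (n = 3) in Early, 1.02 ± 0.0458 (n = 4) in Late and 1.05 ± 0.114 (n = 3) in Reactivated. The highest Early library (0.833) was below the lowest of any other group (0.979). Outside chromosome 7 the ratio was 1.00 in Basal, 0.807 in Early, 0.998 in Late and 1.04 in Reactivated, and on chromosome 7, over 24 isolated regions, 1.13, 1.09, 1.17 and 1.10. The split by chromosome was chosen after seeing the data, and no test of these differences in share was made.

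Isolated regions were also compared with the nearest region, across the gap. The log2 changes were compared for 561 covered isolated regions whose nearest region, of any width, was also covered. Pearson's r was 0.552 in Reactivated against Early, 0.450 in Early against Basal and 0.360 in Late against Early. For 153204 covered other regions paired in the same way, r was 0.514, 0.349 and 0.265. Regions nearest to each other entered once for each. In Reactivated against Basal r was 0.0519 beside 0.130, in Reactivated against Late 0.240 beside 0.303, and in Late against Basal 0.174 beside 0.147. These are descriptions across regions of the same libraries, and neighbouring regions share their chromosome and the libraries' differences in level.

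Replicate spread in isolated regions depended on whether the near-empty members were counted. Over all members the median SD of log2(relative level + 0.25) was 0.27 in Basal, 0.27 in Early, 0.21 in Late and 0.25 in Reactivated, below 0.29, 0.31, 0.23 and 0.27 in other regions. The median SD of covered isolated regions was 0.31 in Basal, 0.34 in Early, 0.24 in Late and 0.30 in Reactivated, and that of other covered regions 0.29, 0.31, 0.23 and 0.27. The correlation between libraries of a group over covered isolated regions (Pearson's r across regions, which are not independent replicates) was lowest in Early, 0.572 to 0.647, and 0.672 to 0.794 in the other groups.

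A few isolated regions had high levels throughout. After the chromosome 15 region came chr17:21081798-21083006, with 6.50, 4.41, 4.71 and 5.24 in Basal, 2.02, 3.24 and 2.59 in Early, 4.35, 4.55, 3.47 and 4.33 in Late, and 5.64, 3.89 and 4.95 in Reactivated. Early was below all other libraries there. At chr10:62254464-62255675 the group means were 4.71 ± 0.706, 3.60 ± 1.41, 3.31 ± 0.226 and 5.57 ± 1.24 in the order Basal, Early, Late and Reactivated. At chr10:93497781-93499346 the Late libraries lay within 2.56 to 2.60, below 2.87 to 5.15 in Basal and 4.60 to 5.18 in Reactivated. At chr7:112958958-112959945 the means were 4.65 ± 1.03, 2.17 ± 0.680, 2.82 ± 0.435 and 4.35 ± 0.641 in that order. In all 5 of these highest regions the Late mean was below the Basal and the Reactivated mean. Other regions had this order too at their 90th percentile, on average 1.97 in Basal, 1.79 in Late and 2.06 in Reactivated libraries.

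Others hardly varied. The smallest range over 14 libraries was at chr8:5590832-5592363, 0.64 on the log2(relative level + 0.25) scale, with relative levels from 0.690 to 1.22. Next were chr12:77117313-77117927, with 0.960 to 1.67, and chr2:150187911-150188820, with 1.11 to 1.93. At the 50000-base limit of the rule, the regions just inside were chr12:87711687-87712302 (gap 50010 bases, mean relative level 0.924), chr16:75155682-75156474 (50023, 0.835) and chr1:150240438-150241088 (50075, 0.799). Those just outside were chr2:141163505-141163961 (49981, 1.45), chr15:87081461-87082061 (49954, 0.765) and chr6:52316590-52316913 (49933, 1.19).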

How the data were processed

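ATAC-seq libraries (14) were described from 1 deposited table that holds, per the file headers, a region per line with its position and an RPKM value per library. Per the submitters' processing notes, the mm9 build and the tools MACS2, Bowtie2, DESeq2, DiffBind and SAMtools were used, with no role or order given. The use of single or pooled libraries in calling regions, the treatment of duplicates and any shift of read ends are not given in the sources used here, as is whether starts count from 0 or 1. Positions and gaps are as in the table used here.

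RPKM times width was a whole multiple of 1 step in each library for all values (within 0.01), which gave reads and library totals. No value was below 1 read, so intervals for empty regions were not computed. The authors' RPKM values were divided by the library's median over all regions, and log2(relative level + 0.25) was fitted with limma (trend, robust) for 4 group means in all 14 libraries, over all 191271 regions with no filter, two-sided, in 6 comparisons. The procedure was tested on simulated data. The smallest effects that a region can show are limited by its reads, a median of 14 to 34 per library in isolated regions.

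Named regions had adjusted p under 0.05, groups that did not overlap and a log2 level that on average exceeded the isolated median. The 5 with the largest change in each direction were taken for Reactivated against Late and for Early and Late each against Basal, and 2 for the other comparisons, with fewer where fewer passed. Regions with the 5 widest gaps, the 5 highest levels, the 3 smallest ranges and the 3 positions on either side of the gap limit were added. The members, lists and tests were chosen with earlier results of these data known. Gene context and cell type markers were planned and not analysed here, since no annotation of the table's build was used. Alternatives were another pseudocount, filters on low values, quantile scaling, deposited RPKM, limma's voom on recovered reads, other sets of libraries, covariates, other gap and width limits, and leaving out each library. Python 3.11.15, numpy 2.4.6, pandas 2.3.3, scipy 1.17.1, matplotlib 3.10.9, R 4.3.3 and limma 3.58.1 were used.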

Additional observations from a re-analysis of the deposited data

Results flagged for a closer look

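Groups of 4 libraries (Basal and Late) were examined for 45 named regions (90 groups) and for measures of whole libraries (10 groups). In 4 of these 100 groups, all at named regions, the extreme library stood apart from the rest by Dixon's criterion (the gap to the nearest library as a share of the group's range). Chance gives about 1 in 20 groups. Basal replicate 3 was high at chr17:52950181-52950455, with a relative level of 0.961. Late replicate 1 was high at chr7:11080259-11080888 (2.58), at chr17:77416198-77416771 (2.28) and at chr16:75155682-75156474 (1.27).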

How the results depend on the processing

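The percentage of isolated regions called kept to within 1.5 times its value in 146 of 198 combinations of a comparison and an alternative, and the causes of the others were not tested. On the deposited RPKM scale it was 9.92% in Early against Basal, where the balance turned to more higher than lower regions. It was 23.8% in Reactivated against Basal and 1.80% in Reactivated against Early. Of all regions 10.1%, 26.0% and 0.905% were called in these comparisons. Leaving out the lowest 25% of regions gave 26.8%, 19.8% and 11.2% in these 3 comparisons, beside 15.9%, 21.8% and 4.36% of all regions kept. Leaving out the lowest 10% gave 8.93% in the last, beside 3.44%. Quantile normalization gave 6.76% in Late against Early, beside 1.93% of all regions. Voom gave 4.51% in Reactivated against Late and 9.36% in Reactivated against Early, beside 3.38% and 5.47% of all regions. Fits of the compared libraries alone gave 5.64% in Early against Basal, 3.49% in Reactivated against Late and 1.01% in Late against Early. Of all regions 3.20%, 3.08% and 0.104% were called in these fits. In Reactivated against Early such a fit called 0 isolated regions and 0 of all regions. There limma gave 173 isolated regions an unadjusted p under 0.05, beside 15.8% of all regions. Adjusting for the percentage of reads that fell in regions gave 6.65% in Late against Early, beside 3.28% of all regions. It gave 0 in Reactivated against Basal, and 0 of all regions too. With the Late libraries averaged, 6.49% of all regions were called in Early against Basal and 10.6% in Reactivated against Basal. In Reactivated against Early that fit gave 18.2% of all regions an unadjusted p under 0.05 (limma). The values for isolated regions are given next. Averaging the Late libraries gave 10.7% in Early against Basal, 7.78% in Reactivated against Basal, and 0 in Late against Basal, Reactivated against Late, Late against Early and Reactivated against Early (limma, 136, 38, 74 and 191 at an unadjusted p under 0.05).

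Gap limits of 25000 and 100000 bases gave 2.16% and 6.72% in Late against Early, beside 0.767% of all regions. The wider one gave 8.96% in Early against Basal, beside 12.7% of all regions. With each library left out in turn the percentage ran from 7.67% to 17.7% in Early against Basal, 19.3% to 28.3% in Late against Basal, 0.902% to 2.59% in Reactivated against Late, 1.35% to 6.76% in Late against Early, 4.96% to 15.1% in Reactivated against Basal and 0 to 9.47% in Reactivated against Early. Of 1036 combinations of a named region, comparison and alternative, 899 kept the call, 137 lost it and 0 changed direction. Some of these fits left out a library of neither group compared, where the log2 change cannot alter. The counts therefore overstate how far the calls were tried.

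The level of isolated against other regions in Basal, Early, Late and Reactivated was 0.809, 0.847, 0.995 and 0.970 with a gap limit of 25000 bases, 0.145, 0.144, 0.244 and 0.233 with one of 100000 bases, and 0.896, 0.857, 1.08 and 1.09 in regions above 1 read, an alternative chosen after seeing the data. With widths from 300 bases it was 0.763 in Basal, 0.739 in Early, 0.966 in Late and 0.920 in Reactivated. From means of log2 values it was 0.691 in Basal, 0.652 in Early, 0.775 in Late and 0.759 in Reactivated. The groups lay closer together on that measure than by medians. Leaving out a library moved it within 0.687 to 0.702, 0.664 to 0.731, 0.893 to 0.914 and 0.844 to 0.886.

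With the replicate block the percentage called was 10.5% in Early against Basal, 0.902% in Reactivated against Late and 1.69% in Late against Early. It was 8.34% in Reactivated against Basal and 0.113% in Reactivated against Early. Of all regions 6.69%, 0.130%, 0.155%, 12.2% and 0.0952% were called, in that order. Libraries with the same number deviated from their group means with correlations of -0.241 to 0.0616, so the numbers were not taken to pair them. Depth limits the 75 isolated regions at 1 read throughout, which cannot be told from empty.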

Other observations

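The X chromosome, which the definition leaves out, held 248 regions that met the same width and gap limits. Their median RPKM divided by that of other X regions of the width was 0.613 ± 0.0453 (SD, n = 4) in Basal, 0.821 ± 0.0546 (n = 3) in Early, 0.895 ± 0.0407 (n = 4) in Late and 0.739 ± 0.0407 (n = 3) in Reactivated. Basal (0.574 to 0.667) was below every other library, and Reactivated (0.692 to 0.765) overlapped with Early (0.764 to 0.873). No test was made of this summary.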
